A study of Mus musculus with 12 samples.

Results

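The genes described here encode the subunits of voltage-gated sodium channels, voltage-gated calcium channels, and HCN channels. They were chosen by symbol: Scn with a number and a or b, Cacna1 with a letter, Cacna2d, Cacnb, Cacng, or Hcn with a number. The rule found 44 of the 45777 genes listed for the embryonic mouse spinal cord. Of these 44 genes, 10 encode sodium channel pore (Nav alpha) subunits and 4 encode Nav beta subunits. On the calcium channel side, 10 encode pore (Cav alpha1) subunits, 4 encode alpha2delta, 4 encode beta, and 8 encode gamma subunits, and the remaining 4 encode HCN channels.

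Voltage-gated sodium channels open on depolarization and carry the upstroke of the action potential, and their beta subunits tune gating and act as adhesion molecules. Calcium channels let calcium in during activity: T-type channels open near rest, L-type channels couple activity to gene expression, and P/Q-, N-, and R-type channels trigger transmitter release. HCN channels open on hyperpolarization, carry a mixed cation current, and support rhythmic firing. Embryonic MNs are already spontaneously active, and their channel repertoire changes up to and after birth.

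Total RNA was sequenced from E12.5 ventral spinal cords trimmed around *Hb9::GFP*, a transgene in which a motor neuron (MN) promoter drives GFP. The 4 groups were brachial and lumbar cord of *Isl2* +/- (heterozygote) embryos and brachial and lumbar cord of *Isl2* KO embryos, with 3 libraries each, and all embryos carried the reporter and at least 1 null allele of *Isl2*. The tissue was not sorted, so each library holds MNs with their neighbours, and fewer cells of a type and less RNA per cell cannot be told apart. Levels are given as TPM, a gene's share of a library's transcripts after scaling to gene length, rescaled between libraries by size factors.

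*Isl2*, the disrupted gene, was at 8.89 ± 0.675 TPM in brachial heterozygote and 5.95 ± 1.41 TPM in brachial KO libraries (mean ± SD, n = 3). In lumbar libraries it was at 9.34 ± 0.934 and 7.35 ± 0.889 TPM, and KO and heterozygote libraries did not overlap at either level. *Hoxc8* averaged 157 TPM in brachial and 15.6 TPM in lumbar libraries, and *Hoxd10* 0.00409 and 164 TPM. The files behind each library held between 4.48 and 6.64 Gb of aligned sequence, with the least in brachial KO library 3. The size factors ran from 0.901 to 1.24, with the highest in brachial KO library 2. The Y-linked gene *Ddx3y* was listed at 0 in 5 libraries, and in 3 of the 6 same-numbered brachial and lumbar pairs it was at 0 in only one library, so the numbers do not mark a shared embryo. The series was designed with 3 heterozygote and 3 KO animals, so brachial and lumbar libraries may share embryos under other numbers. *Ddx3y* was at 0 in 1 brachial and 2 lumbar heterozygote libraries, which cannot be the same 3 embryos, and in 1 brachial and 1 lumbar KO library, which can. The level comparison treats all 12 libraries as separate, whether or not they share embryos.

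The channel genes covered a wide range of levels. By mean over the 12 libraries, 13 stood at 10 TPM or more, 17 between 1 and 10 TPM, and 14 below 1 TPM. A test was run where a gene's mean reached 0.5 TPM, which 33 of the 44 genes did. The median of these 33 was 7.63 TPM, against 11.3 TPM over all genes tested. The plot of levels by library shows that the leading gene of each family was the same in the 4 groups.

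**Figure D1:**
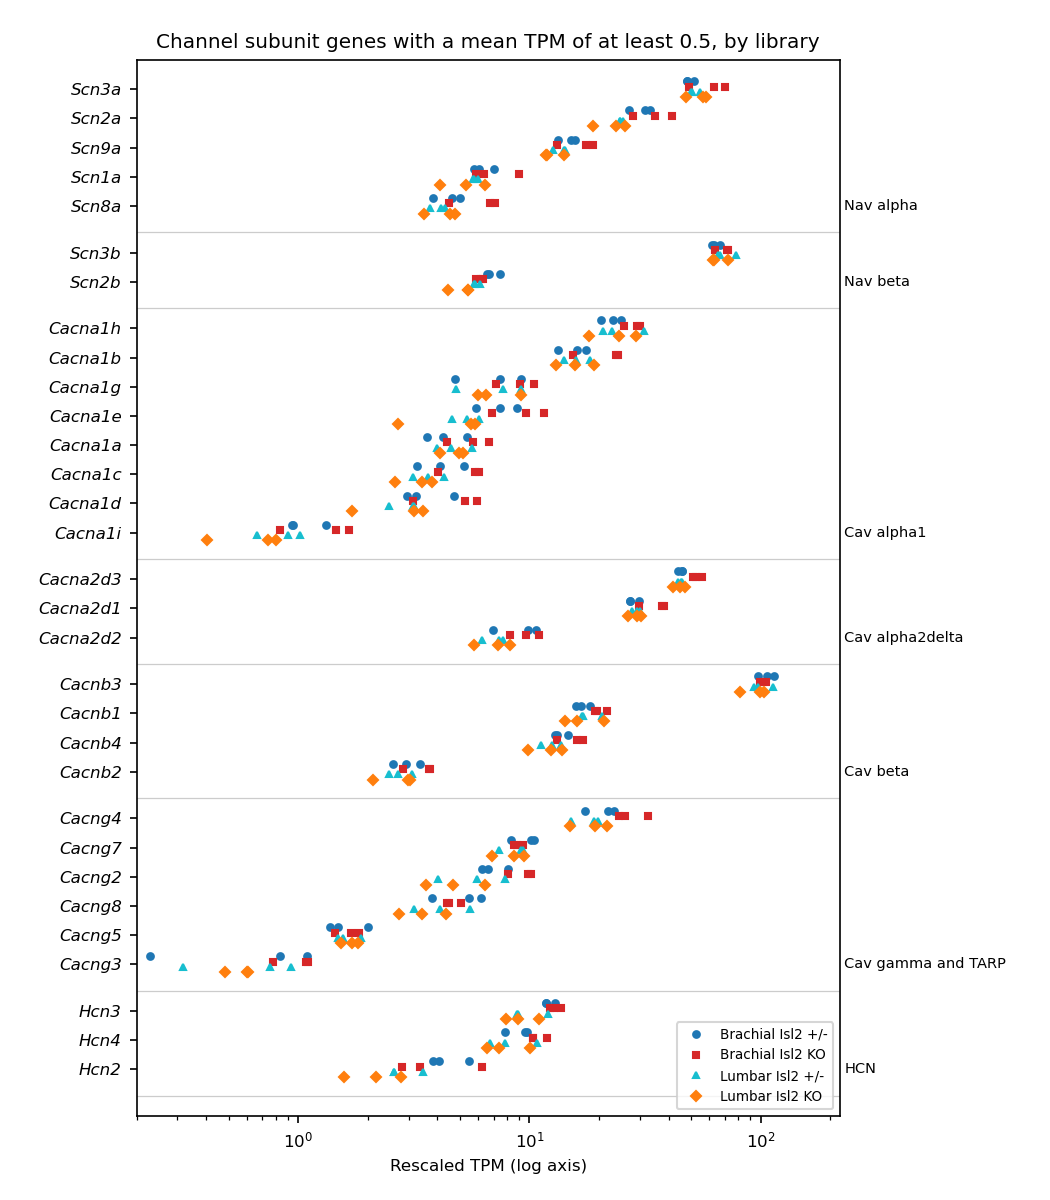
Rescaled TPM of 31 tested channel genes (log axis), grouped by subunit family, with 1 point per library and the 4 groups offset and marked by colour and shape. Cacnb3 lies at the top of the range, between 81.7 and 114 TPM, and Cacng3 and Cacna1i at the bottom.

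Among the sodium channel pores, *Scn3a*, which encodes the embryonic and neonatal channel Nav1.3, held the highest level. It stood at 47.8, 51.4, and 47.8 in the 3 brachial heterozygote libraries, 48.8, 62.5, and 69.8 in the 3 brachial KO, 54.6, 49.98, and 50.2 in the 3 lumbar heterozygote, and 57.8, 47.4, and 56.5 in the 3 lumbar KO libraries. The brachial KO libraries 2 and 3 held the highest values, and KO library 1 lay within the heterozygote range. *Scn3a* made up 49.9% ± 3.48 of the summed TPM of the 10 pore genes (mean ± SD over 12 libraries). *Scn2a* (Nav1.2), the channel of early axon initial segments, came next at 28.2 ± 6.06 TPM and took 26.0% ± 2.89 of the pore sum. *Scn9a* (Nav1.7), a channel best known from sensory and sympathetic neurons, was at 14.4 ± 2.18 TPM. Its group means were 14.7 ± 1.24 in brachial heterozygote, 16.6 ± 3.0 in brachial KO, 13.7 ± 0.909 in lumbar heterozygote, and 12.6 ± 1.3 in lumbar KO libraries.

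The pore genes best known from the adult cord stood lower. *Scn1a* (Nav1.1), a channel of mature inhibitory neurons and MNs, averaged 6.12 ± 1.14 TPM, and *Scn8a* (Nav1.6), the channel of mature nodes of Ranvier, averaged 4.73 ± 1.13 TPM. Their library ranges overlapped, from 4.12 to 8.98 and from 3.5 to 7.13 TPM. By group, *Scn1a* was at 6.3 ± 0.653 in brachial heterozygote, 7.07 ± 1.67 in brachial KO, 5.82 ± 0.159 in lumbar heterozygote, and 5.28 ± 1.15 in lumbar KO libraries. For *Scn8a* the same means were 4.49 ± 0.603 in brachial heterozygote, 6.14 ± 1.43 in brachial KO, 4.06 ± 0.291 in lumbar heterozygote, and 4.26 ± 0.668 in lumbar KO libraries. *Scn7a*, a sodium-sensing relative, averaged 0.298 TPM. The nociceptor genes were near the floor, with *Scn11a* (Nav1.9) at 0.0833 TPM and *Scn10a* (Nav1.8) listed at 0 in all 12 libraries. The skeletal muscle channel *Scn4a* was listed at 0 in 11 libraries.

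The Nav beta subunits were dominated by *Scn3b*, a single-pass subunit abundant in the embryonic nervous system. It stood at 62.8, 66.3, and 61.6 in the 3 brachial heterozygote libraries, 63.3, 71.7, and 72.0 in the 3 brachial KO, 77.9, 66.8, and 65.5 in the 3 lumbar heterozygote, and 72.5, 62.7, and 62.0 in the 3 lumbar KO libraries. These values overlap between all 4 groups, and *Scn3b* made up 88.4% ± 2.6 of the summed TPM of the 4 beta genes. *Scn2b*, a beta subunit that is linked to the pore by a disulfide bond, averaged 6.01 ± 0.745 TPM. *Scn4b*, a beta subunit linked in the same way, averaged 0.0186 TPM and was at 0 in 7 libraries.

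The calcium channel pores summed to 69.97 ± 13.9 TPM. T-type genes took 48.2% ± 3.98 of that sum, P/Q-, N-, and R-type genes 41.0% ± 2.6, and L-type genes 10.9% ± 1.54. Low-voltage calcium currents are known from young MNs. *Cacna1h* (Cav3.2) led the pores. Its values were 22.9, 24.7, and 20.5 in the 3 brachial heterozygote libraries, 25.7, 29.96, and 29.3 in the 3 brachial KO, 31.1, 22.7, and 20.8 in the 3 lumbar heterozygote, and 29.0, 24.5, and 18.2 in the 3 lumbar KO libraries. *Cacna1g* (Cav3.1) was lower, at 7.13 ± 2.22 in brachial heterozygote, 8.92 ± 1.64 in brachial KO, 7.25 ± 2.24 in lumbar heterozygote, and 7.21 ± 1.75 in lumbar KO libraries. The third T-type gene, *Cacna1i* (Cav3.3), averaged 0.972 ± 0.349 TPM, below 1.

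Of the synaptic pores, *Cacna1b* (Cav2.2, N-type), which carries release at immature terminals, was the highest. It stood at 16.0, 17.5, and 13.3 in the 3 brachial heterozygote libraries, 15.4, 23.6, and 24.2 in the 3 brachial KO, 18.3, 15.8, and 14.1 in the 3 lumbar heterozygote, and 19.0, 13.0, and 15.7 in the 3 lumbar KO libraries. Brachial KO libraries 2 and 3 were the 2 highest, and brachial KO library 1 lay within the heterozygote range. *Cacna1e* (Cav2.3, R-type) averaged 6.71 ± 2.4 TPM. *Cacna1a* (Cav2.1, P/Q-type), which takes over release at the mature neuromuscular junction, was below *Cacna1b* in every library, with means of 4.4 ± 0.89 in brachial heterozygote, 5.61 ± 1.15 in brachial KO, 4.73 ± 0.824 in lumbar heterozygote, and 4.73 ± 0.564 in lumbar KO libraries.

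The L-type pores were low. *Cacna1c* (Cav1.2) led them with 4.09, 5.22, and 3.25 in the 3 brachial heterozygote libraries, 4.0, 6.04, and 5.82 in the 3 brachial KO, 4.27, 3.63, and 3.12 in the 3 lumbar heterozygote, and 3.42, 2.63, and 3.8 in the 3 lumbar KO libraries. *Cacna1d* (Cav1.3), the L-type channel of persistent inward currents in adult MNs, had means of 3.63 ± 0.959 in brachial heterozygote, 4.79 ± 1.48 in brachial KO, 2.93 ± 0.393 in lumbar heterozygote, and 2.79 ± 0.942 in lumbar KO libraries. Both genes overlap a decapping-factor gene on the opposite strand, *Dcp1b* and *Dcp1a*, and whether the counting used strand is not stated. The skeletal muscle pore *Cacna1s* averaged 0.0337 TPM and the retinal pore *Cacna1f* was listed at 0 in 10 libraries.

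The alpha2delta subunits traffic calcium channels to the surface and bind gabapentin in the case of *Cacna2d1* and *Cacna2d2*. *Cacna2d3* held the highest level of the family, with 44.0, 45.8, and 45.6 in the 3 brachial heterozygote libraries, 52.7, 50.8, and 55.6 in the 3 brachial KO, 45.5, 45.1, and 43.7 in the 3 lumbar heterozygote, and 46.9, 44.7, and 41.6 in the 3 lumbar KO libraries. *Cacna2d1* was at 27.2, 29.7, and 27.3 in the 3 brachial heterozygote libraries, 29.8, 37.4, and 38.1 in the 3 brachial KO, 30.1, 29.1, and 27.6 in the 3 lumbar heterozygote, and 29.1, 26.6, and 30.5 in the 3 lumbar KO libraries. For both genes all brachial KO values lay above the brachial heterozygote values, by a narrow gap for *Cacna2d1*, and the lumbar libraries overlapped. *Cacna2d2* averaged 8.25 ± 1.7 TPM and *Cacna2d4*, a retinal subunit, 0.0389 TPM.

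The cytoplasmic beta subunits were led by *Cacnb3*, the highest of all 44 channel genes, which took 74.5% ± 2.72 of the family sum. It stood at 106, 97.0, and 114 in the 3 brachial heterozygote libraries, 106, 99.1, and 102 in the 3 brachial KO, 97.4, 93.5, and 113 in the 3 lumbar heterozygote, and 99.6, 103, and 81.7 in the 3 lumbar KO libraries. The 4 groups overlapped. *Cacnb1*, the beta subunit of skeletal muscle that is also made in brain, was at 18.3, 16.7, and 15.9 in the 3 brachial heterozygote libraries, 19.1, 19.6, and 21.6 in the 3 brachial KO, 20.6, 17.1, and 16.9 in the 3 lumbar heterozygote, and 20.9, 16.1, and 14.2 in the 3 lumbar KO libraries. The brachial KO values all lay above the brachial heterozygote values, and the lumbar libraries overlapped. Its locus overlaps the ribosomal protein gene *Rpl19* on the opposite strand, which averaged 884 TPM, and the part of its reads in the *Cacnb1* value was not tested. *Cacnb4*, mutated in the lethargic mouse, was at 13.6 ± 0.94 in brachial heterozygote, 15.4 ± 2.0 in brachial KO, 12.47 ± 1.22 in lumbar heterozygote, and 12.03 ± 2.02 in lumbar KO libraries. The heart subunit gene *Cacnb2* was the lowest, with means of 2.96 ± 0.403 in brachial heterozygote, 3.41 ± 0.491 in brachial KO, 2.76 ± 0.321 in lumbar heterozygote, and 2.71 ± 0.529 in lumbar KO libraries.

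The gamma family holds muscle calcium channel subunits and the TARPs, which traffic AMPA receptors. The TARP gene *Cacng4* led it at 48.2% ± 3.52 of the family sum. *Cacng7* came second by mean over the 12 libraries, at 9.66 ± 1.15 in brachial heterozygote, 8.92 ± 0.423 in brachial KO, 8.64 ± 1.09 in lumbar heterozygote, and 8.31 ± 1.33 in lumbar KO libraries. *Cacng2* (stargazin) averaged 6.78 ± 2.11 TPM, and its brachial KO mean of 9.36 ± 1.14 TPM was above that of *Cacng7*. The TARP gene *Cacng8* had means of 5.14 ± 1.23 in brachial heterozygote, 4.64 ± 0.366 in brachial KO, 4.27 ± 1.21 in lumbar heterozygote, and 3.5 ± 0.818 in lumbar KO libraries. *Cacng5* was at 1.62 ± 0.333 in brachial heterozygote, 1.66 ± 0.198 in brachial KO, 1.64 ± 0.204 in lumbar heterozygote, and 1.69 ± 0.143 in lumbar KO libraries. The TARP gene *Cacng3* averaged 0.735 ± 0.296 TPM, and the muscle subunit genes *Cacng1* and *Cacng6* averaged 0.213 and 0.0124 TPM.

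Of the HCN genes, *Hcn3* took 45.9% ± 2.13 and *Hcn4*, the slow channel best known as the cardiac pacemaker, 37.6% ± 3.2 of the summed TPM. *Hcn4* lies 3.28 Mb from *Isl2* on chromosome 9 and was the only channel gene within 5 Mb of it. Its values were 9.58, 9.72, and 7.83 in the 3 brachial heterozygote libraries, 10.4, 10.4, and 11.8 in the 3 brachial KO, 10.8, 7.84, and 6.77 in the 3 lumbar heterozygote, and 10.01, 7.35, and 6.57 in the 3 lumbar KO libraries. All brachial KO values lay above the brachial heterozygote values, and the lumbar libraries overlapped. *Hcn2* was at 3.41 ± 1.34 TPM.

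**Figure D2:**
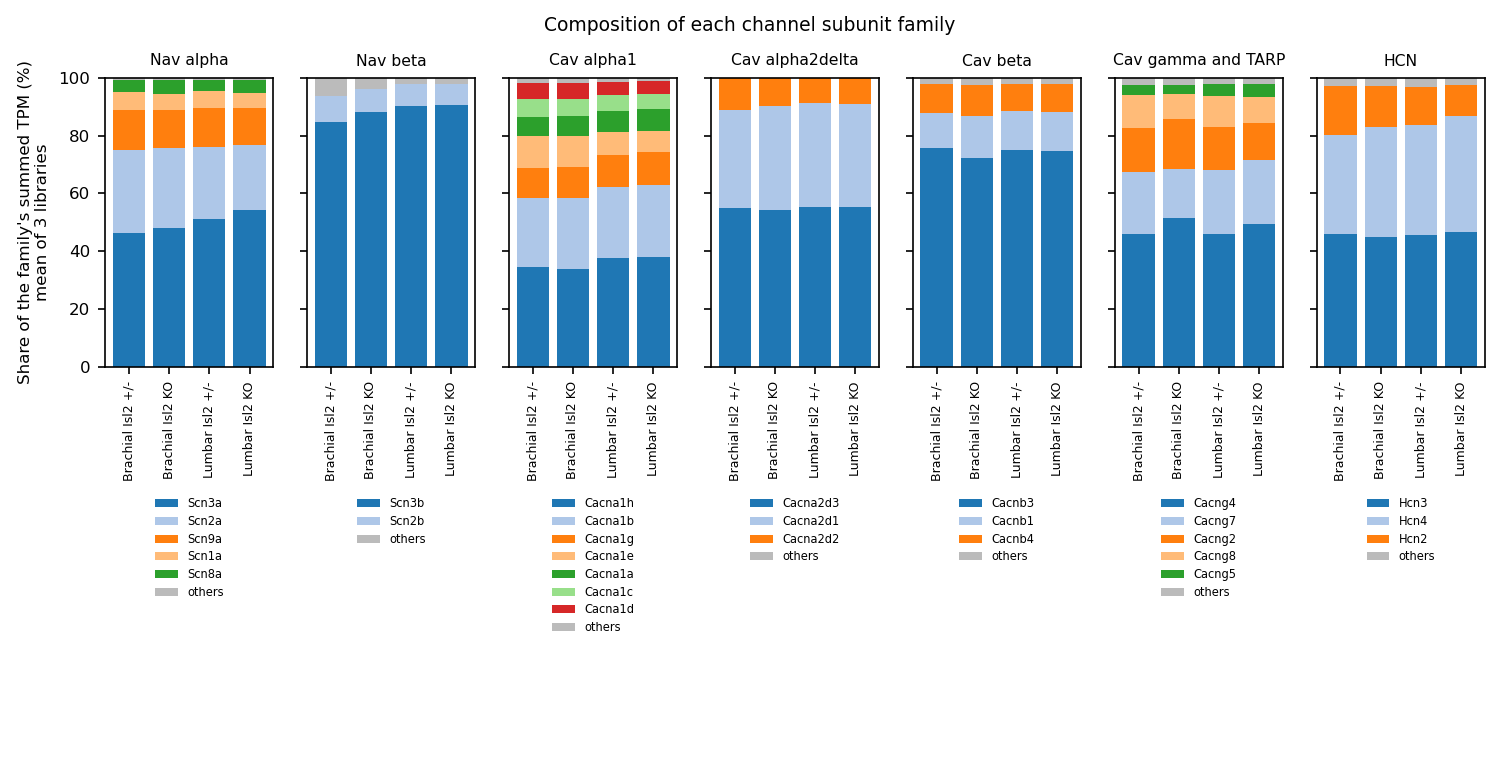
Share of each family's summed TPM (%) taken by its genes in each of the 4 groups, as stacked bars of the mean of 3 libraries. Genes outside the legend are drawn together as others, and Scn3b, Cacnb3, and Cacna2d3 each take the largest share of their family in every group.

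Sequence around the annotated starts was read from RefSeq for GRCm38.p6, as windows from 250 bases before to 50 bases after a start, 300 bases in all. It held 43 such windows for 32 of the 44 genes. The G and C share of these windows had a median of 59.7% (33.0% to 87.3%), against 56.3% over 21250 windows of all protein-coding genes, and the median number of CG dinucleotides was 11 against 13. The 4 windows below belong to genes with a level difference, 2 with few and 2 with many CG, read 5′ to 3′ on the strand of the gene. Capitals mark each CG, the dinucleotide that can carry methylation. *Scn2a* (chr2:65620519-65620818, plus strand) held 3 CG and *Scn2b* (chr9:45117626-45117925, plus strand) held 2. Another *Scn2a* window (chr2:65668436-65668735) held 9 CG, and the window with the lower G and C share is shown. *Cacng2* (chr15:78119231-78119530, minus strand) held 20 and *Hcn2* (chr10:79716384-79716683, plus strand) held 26, and 7 channel windows had a higher G and C share than that of *Hcn2*.
Scn2a: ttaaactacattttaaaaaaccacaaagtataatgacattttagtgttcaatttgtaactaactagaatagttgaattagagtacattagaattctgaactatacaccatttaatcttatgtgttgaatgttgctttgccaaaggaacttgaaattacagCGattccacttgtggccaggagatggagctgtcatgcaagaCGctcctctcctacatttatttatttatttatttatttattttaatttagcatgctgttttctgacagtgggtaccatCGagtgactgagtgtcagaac
Scn2b: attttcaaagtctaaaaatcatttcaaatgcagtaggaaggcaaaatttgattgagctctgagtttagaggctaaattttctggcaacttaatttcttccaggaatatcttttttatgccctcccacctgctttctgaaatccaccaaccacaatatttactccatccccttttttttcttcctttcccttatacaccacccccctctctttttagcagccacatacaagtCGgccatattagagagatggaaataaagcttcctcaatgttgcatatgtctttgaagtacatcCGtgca
Cacng2: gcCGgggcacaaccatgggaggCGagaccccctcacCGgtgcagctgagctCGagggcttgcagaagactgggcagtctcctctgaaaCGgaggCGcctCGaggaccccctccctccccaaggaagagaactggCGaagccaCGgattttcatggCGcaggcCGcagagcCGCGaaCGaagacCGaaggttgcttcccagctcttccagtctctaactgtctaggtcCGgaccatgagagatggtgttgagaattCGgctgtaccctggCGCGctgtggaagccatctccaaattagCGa
Hcn2: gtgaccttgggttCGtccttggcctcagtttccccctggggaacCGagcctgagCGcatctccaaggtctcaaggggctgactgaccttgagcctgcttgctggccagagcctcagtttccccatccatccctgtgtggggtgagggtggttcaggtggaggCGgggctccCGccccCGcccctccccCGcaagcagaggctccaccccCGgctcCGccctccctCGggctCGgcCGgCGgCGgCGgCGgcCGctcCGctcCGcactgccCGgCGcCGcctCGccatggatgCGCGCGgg

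The windows were searched for short motifs on both strands. CAGCTG, an E-box whose letters read the same on both strands, was in 13 of 43 channel windows (30.2%) and in 15.6% of all protein-coding windows. Its 12 genes include *Cacng2*, *Cacna1b*, *Cacna2d3*, and *Cacnb4*. GGGCGG, the GC box, was in 18 windows (41.9%) against 46.2%, among them *Hcn2*, *Cacna2d2*, *Cacna2d3*, and *Hcn4*. TATAAA was in 2 windows (4.65%) against 12.6%, those of *Cacna1d* and the other start of *Scn2a*. TAATTA, a homeodomain core, and TTCAGCACC, part of the RE1 element, were in 0 channel windows and in 4.54% and 0.414% of all windows. These matches are descriptions of letters and were tied to no binding data.

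Lumbar and brachial libraries were compared with genotype as a term, 6 against 6, to find which channel genes differ with axial level. At an adjusted p under 0.05 (limma with Benjamini-Hochberg adjustment over all 16736 genes tested), 9 of the 33 channel genes were called (27.3%), all 9 lower at the lumbar level. Over all genes tested, 18.9% were called, 10.1% lower and 8.77% higher. Of the called genes, 8 are described here: *Scn2a*, *Scn2b*, *Cacna1e*, *Cacna2d2*, *Cacng2*, *Cacng4*, *Hcn2*, and *Hcn3*. Of the 33 genes, 16 were lower at an unadjusted p under 0.05 (all genes, 16.6%), and 31 of 33 had a negative log2 fold change (all genes, 49.1%). Of the 33 genes, 9 (27.3%) were at an unadjusted p under 0.05 without brachial KO library 3 (all genes in either direction, 32.8%) or lumbar KO library 2 (28.2%), against 10 without brachial KO library 2 (27.0%). The median log2 fold change was −0.26 over the 33 genes and 0.0055 over all genes. Within the heterozygotes alone it was −0.127, with 24 of 33 negative, and within the KO libraries alone −0.412, with 32 of 33 negative. *Scn3b* (0.03) and *Cacng5* (0.03) were positive, and with unscaled TPM, which moved the median of all genes to −0.125, all 33 were negative.

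**Figure D3:**
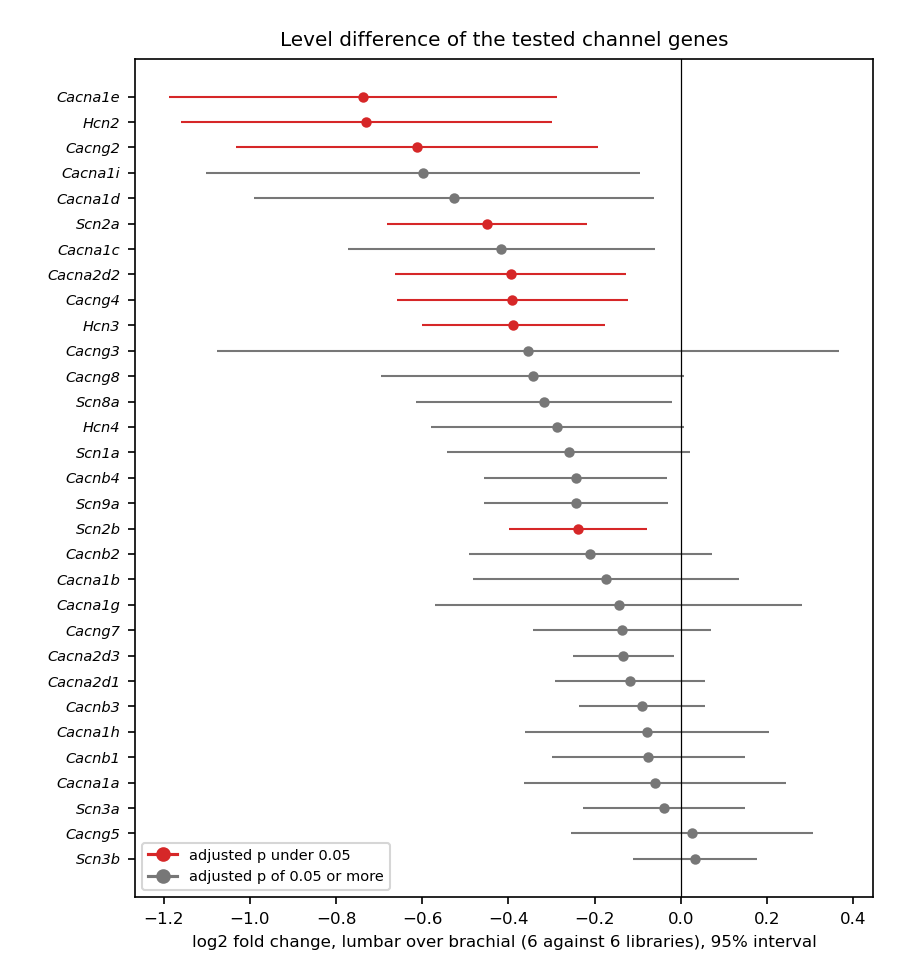
Log2 fold change of lumbar over brachial libraries with its 95% interval for 31 tested channel genes, with genes at an adjusted p under 0.05 in red. All 8 red genes lie left of 0, with Cacna1e at −0.74 the lowest of them and Scn2b at −0.24 the closest to 0.

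*Scn2a* (chr2:65620764-65767447, mm10), whose start window with fewer CG is shown above, was the only one of the 33 genes with no overlap between levels (lower without overlap over all genes, 4.85%). Its TPM was 27.0, 31.6, and 33.2 in the 3 brachial heterozygote libraries, 28.1, 41.4, and 34.8 in the 3 brachial KO, 24.6, 24.7, and 25.3 in the 3 lumbar heterozygote, and 25.8, 18.8, and 23.6 in the 3 lumbar KO libraries. The lowest brachial library stood at 27.0 and the highest lumbar library at 25.8 TPM. The log2 fold change was −0.45 (95% interval −0.68 to −0.22, adjusted p = 0.0124, limma). Within the pore sum, *Scn2a* was at 28.3% ± 2.03 in brachial and 23.7% ± 1.38 in lumbar libraries, and *Scn3a* at 47.2% ± 2.24 and 52.7% ± 1.84. *Scn3a* itself had a log2 fold change of −0.04 (−0.23 to 0.15). *Scn2b* (chr9:45117876-45130070) stood at 6.53, 6.7, and 7.43 in the 3 brachial heterozygote libraries, 6.32, 5.87, and 6.18 in the 3 brachial KO, 5.78, 5.81, and 6.13 in the 3 lumbar heterozygote, and 5.44, 5.43, and 4.45 in the 3 lumbar KO libraries. The levels overlapped through brachial KO library 2 and lumbar heterozygote library 3, and the lumbar value was −0.24 on the log2 scale (−0.40 to −0.08, adjusted p = 0.0404, limma).

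Of the HCN genes, *Hcn3* and *Hcn2* were lower in lumbar cord. *Hcn3* (chr3:89146775-89160284) stood at 11.7, 12.8, and 11.8 in the 3 brachial heterozygote libraries, 13.7, 12.8, and 12.2 in the 3 brachial KO, 12.1, 8.96, and 8.87 in the 3 lumbar heterozygote, and 11.0, 8.93, and 7.94 in the 3 lumbar KO libraries. Lumbar heterozygote library 1 reached into the brachial range, and the other lumbar libraries lay below it. The log2 fold change was −0.39 (−0.60 to −0.18, adjusted p = 0.0162, limma). *Hcn2* (chr10:79716634-79736108) stood at 4.06, 5.5, and 3.85 in the 3 brachial heterozygote libraries, 3.36, 6.2, and 2.82 in the 3 brachial KO, 3.46, 2.59, and 2.6 in the 3 lumbar heterozygote, and 2.78, 2.16, and 1.57 in the 3 lumbar KO libraries. Its brachial values spread widely, from 2.82 to 6.2 TPM, and the fold change was −0.73 (−1.16 to −0.30, adjusted p = 0.0232, limma). For *Hcn4*, which was not called, the value was −0.29 (−0.58 to 0.01).

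Among the calcium channel genes, *Cacna1e* (chr1:154390806-154884785) stood at 7.46, 8.79, and 5.88 in the 3 brachial heterozygote libraries, 6.91, 11.6, and 9.69 in the 3 brachial KO, 6.07, 5.35, and 4.64 in the 3 lumbar heterozygote, and 5.81, 2.7, and 5.61 in the 3 lumbar KO libraries. The lowest brachial library overlapped the highest lumbar one, and the log2 fold change was −0.74 (−1.19 to −0.29, adjusted p = 0.0273, limma). The other synaptic pores, *Cacna1b* and *Cacna1a*, had fold changes of −0.17 (−0.48 to 0.14) and −0.06 (−0.36 to 0.24). The L-type pores *Cacna1c* and *Cacna1d* had −0.42 and −0.53, at adjusted p = 0.0986 and 0.108 (limma). *Cacna2d2* (chr9:107399733-107529346) stood at 9.88, 10.6, and 6.99 in the 3 brachial heterozygote libraries, 8.23, 9.69, and 11.0 in the 3 brachial KO, 7.37, 7.67, and 6.22 in the 3 lumbar heterozygote, and 7.29, 5.77, and 8.25 in the 3 lumbar KO libraries. Brachial heterozygote library 3 and brachial KO library 1 lay within the lumbar range, with a fold change of −0.39 (−0.66 to −0.13, adjusted p = 0.042, limma).

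Of the TARPs, *Cacng4* (chr11:107732357-107794706) stood at 23.1, 21.9, and 17.4 in the 3 brachial heterozygote libraries, 24.4, 25.9, and 32.6 in the 3 brachial KO, 19.0, 19.8, and 15.1 in the 3 lumbar heterozygote, and 21.6, 15.0, and 19.3 in the 3 lumbar KO libraries. The 2 levels overlapped, and the log2 fold change was −0.39 (−0.66 to −0.12, adjusted p = 0.0438, limma). *Cacng2* (chr15:77991919-78120220) stood at 6.6, 8.05, and 6.21 in the 3 brachial heterozygote libraries, 8.06, 10.2, and 9.83 in the 3 brachial KO, 7.85, 5.95, and 4.02 in the 3 lumbar heterozygote, and 6.42, 3.55, and 4.66 in the 3 lumbar KO libraries. Lumbar heterozygote library 1 and lumbar KO library 1 lay within the brachial range. Its fold change was −0.61 (−1.03 to −0.19, adjusted p = 0.0442, limma). The cytoplasmic beta genes held no call, with fold changes from −0.24 for *Cacnb4* to −0.08 for *Cacnb1*.

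How firmly a gene was called differed. *Scn2a* and *Hcn3* were called in each of the 12 fits that left out 1 library, *Hcn2* in 9, *Cacna1e* in 8, *Cacna2d2* in 5, *Cacng4* and *Cacng2* in 4 each, and *Scn2b* in 3. The number called fell to 3 without brachial heterozygote library 2 or lumbar heterozygote library 3, to 4 without brachial KO library 2 or 3, and to 5 without lumbar KO library 3. Over all genes, 2096 of 16712 and 2237 of 16775 (13.3%) were called in the fits with 3, 12.7% and 19.0% in those with 4, and 14.9% in the one with 5. Within the heterozygotes alone, 3 against 3, 1 gene was called (all genes, 2.97%), none of the 8 above, and within the KO libraries alone none was (all genes, 1.77%), with 4 and 16 of 33 channel genes (12.1% and 48.5%) at an unadjusted p under 0.05 (limma), against 19.6% and 23.9% of all genes.

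Some markers of neurons moved with level too. Of 10 pan-neuronal markers, 3 were lower at the lumbar level (*Nefm*, *Snap25*, and *Syt1*) and 0 higher, and 9 had a negative fold change (median −0.13). Their sum ranged from 4728 to 5612 TPM in brachial and from 4229.7 to 5464 TPM in lumbar libraries. Of 10 MN markers, *Prph* and *Slc5a7* were lower and 0 higher, and the sum ranged from 491 to 552 TPM in brachial and from 222 to 371 TPM in lumbar libraries, with *Prph* at 285 and 48.4 TPM. The other MN markers were not called, and over the 10 the fold change was negative for 4, with a median of 0.11. None of these 20 markers was listed at 0 in any library. Of 9 progenitor markers, 4 were higher and 2 lower. Of the markers tested in the other 7 lists, 3 of 5 endothelial, 3 of 5 microglial, 2 of 5 Schwann cell and crest, 1 of 6 sensory neuron, and 1 of 3 mesenchymal markers were lower, 1 of 2 muscle markers was higher, and 0 of 5 blood markers passed. *Fabp7*, which was lower, is on both the progenitor and the Schwann cell and crest list and is counted in each. Sensory neuron markers summed to 17.2 to 34.3 TPM with *Runx3* at 0 throughout, and muscle markers to 3.28 to 7.02 TPM with *Myod1* at 0 throughout. The part of these cell types in the channel values was not tested.

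Genes that work with these channels were counted from a list of 37, of which 36 matched and 34 were tested. In lumbar cord, 8 of the 34 were lower and 1 was higher at an adjusted p under 0.05 (limma), against 10.1% and 8.77% of all genes, and 24 of 34 had a negative fold change. The sodium leak channel gene *Nalcn* and its subunit genes *Unc80* and *Fam155a* were among the lower ones, with log2 fold changes of −0.48, −0.60, and −0.37. The axon initial segment spectrin *Sptbn4* had −0.69 and the sodium channel regulator *Fgf11* −0.32. The ryanodine receptor *Ryr2* had −1.09, and the presynaptic scaffolds *Erc2* and *Rims1* −0.46 and −0.35. *Stac*, an L-type channel adaptor, was higher (0.58).

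*Isl2* KO and heterozygote libraries were then compared at each level, 3 against 3, to find channel genes that change without *Isl2*. A gene was called at a log2 fold change beyond 0.5 with an unadjusted p under 0.05 (limma). At the brachial level 0 of the 33 channel genes were called, against 3.14% of all genes tested. At an unadjusted p under 0.05 alone, 6 of 33 (18.2%) passed, all higher in KO, against 7.07% of all genes higher. Their fold changes were all under 0.5, and 0 passed an adjusted p of 0.05 (all genes, 0.0059%). The log2 fold change was positive for 27 of 33 genes (all genes, 49.7%), with a median of 0.23 against −0.0019 over all genes.

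**Figure D4:**
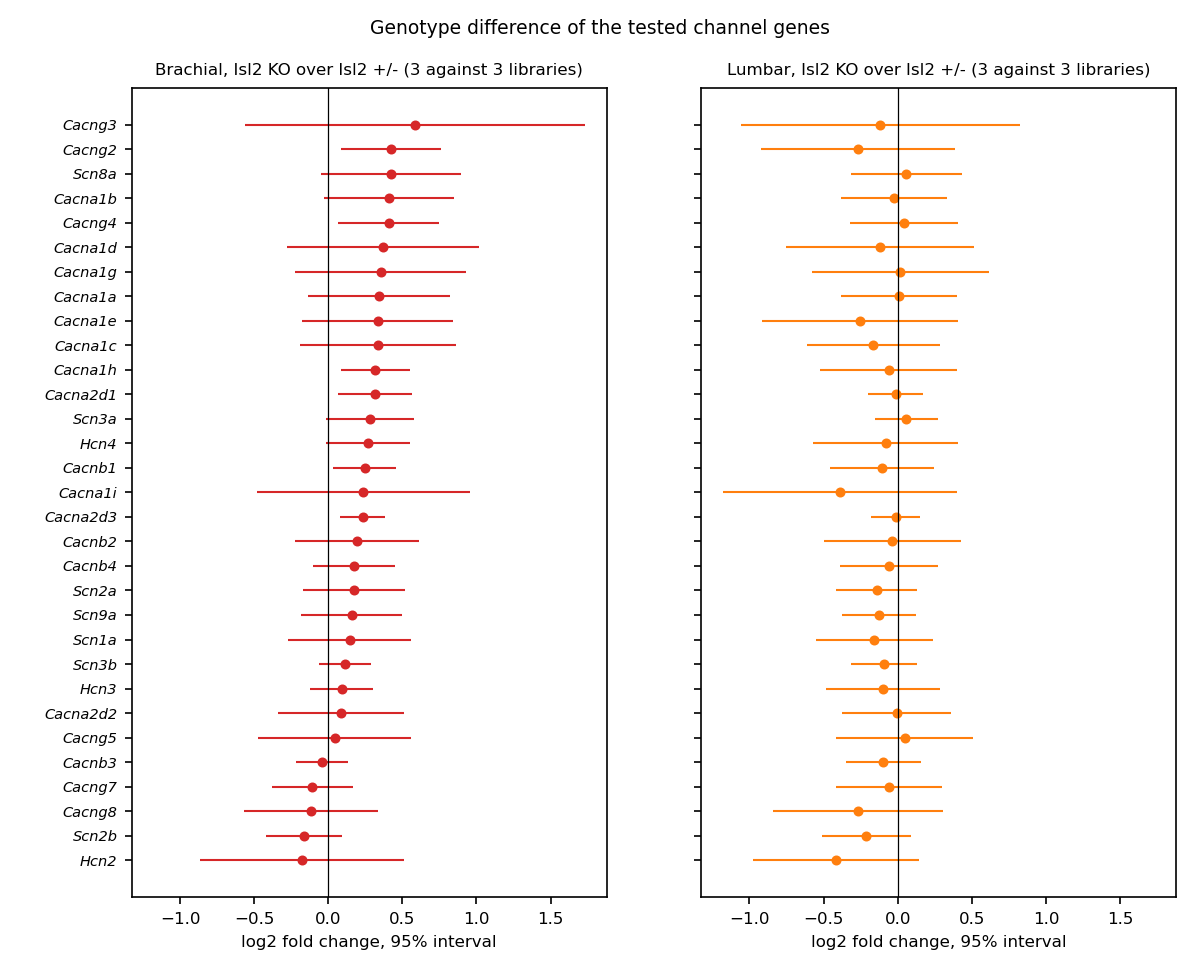
Log2 fold change of Isl2 KO over Isl2 +/- libraries with its 95% interval for 31 tested channel genes at the brachial (left) and lumbar (right) level, in the order of the brachial values. Most brachial points lie right of 0, and most lumbar points left of it, as with the medians of 0.23 and −0.098 over the 33 genes.

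The 6 genes were 2 alpha2delta, 2 TARP, 1 T-type pore, and 1 beta subunit gene. *Cacna2d3* differed by 0.23 on the log2 scale (SE 0.07, limma adjusted p = 0.358) and *Cacna2d1* by 0.31 (SE 0.11). *Cacna1h*, whose brachial means were 22.7 ± 2.15 in heterozygotes and 28.3 ± 2.3 TPM in KO, had 0.32 (SE 0.10). The TARP genes *Cacng2* and *Cacng4* had 0.43 (SE 0.14) and 0.41 (SE 0.15), and *Cacnb1* had 0.24 (SE 0.09). With *Hcn4* (0.27, SE 0.12), these made 7 genes whose KO libraries all lay above the heterozygotes (all genes, 10.0%), and *Scn2b* was the only one whose KO libraries all lay below (all genes, 10.2%). An exact two-sided permutation test of 3 against 3 cannot go below p = 0.1.

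The brachial shift was uneven between libraries. Taking each gene's log2 difference from its 12-library mean, the median over the 33 genes was 0.31 and 0.33 in brachial KO libraries 2 and 3 and 0.02 in brachial KO library 1, and the heterozygotes had 0.03, 0.20, and −0.14. The number at an unadjusted p under 0.05, 6 of 33, was 17 without brachial KO library 1 (51.5%; all genes in either direction, 25.5%), 2 without KO library 3 (6.06%; all genes, 6.30%), and 1 without heterozygote library 3 (3.03%; all genes, 4.63%). Leaving out brachial KO library 2 moved the median fold change from 0.23 to 0.142. Without brachial KO library 1, 7 genes were called (*Scn8a*, *Cacna1a*, *Cacna1b*, *Cacna1c*, *Cacna1d*, *Cacna1e*, and *Cacng2*), against 8.40% of all genes. All 7 were higher in KO. Without brachial KO library 2, 2 genes were called, *Hcn2* among them, both lower in KO (all genes, 2.98%), and without brachial heterozygote library 2, *Cacng2* was called, higher in KO (all genes, 4.35%). Unscaled TPM gave 4 calls (*Scn8a*, *Cacna1b*, *Cacng2*, and *Cacng4*; all genes, 7.43%), where the median of all genes moved to 0.161. Of all genes, 391 of 531 calls were higher with rescaled TPM, 1211 of 1258 with unscaled TPM, and 280 of 494 with quantile normalization.

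Long genes moved in the same libraries. Of the 44 channel genes, 21 span 100 kb or more, up to 818 kb for *Cacna2d3*. At the brachial level all 18 tested channel genes of that span had a positive fold change, with a median of 0.26, and of the 15 shorter ones 9 did, with a median of 0.092. Among the other protein-coding genes, 1586 of 2072 long genes were positive, with a median of 0.17, and the median of the 11292 shorter ones was −0.024. In the level comparison, the other long genes had a median of −0.10 and 20.6% were called lower, against 0.013 and 10.4% for the shorter ones, while 4 of 18 long and 5 of 15 shorter channel genes were called lower. The part of gene length in the channel values was not tested. Neuronal marker sums stood lower in brachial KO, while most single markers had a positive fold change. Pan-neuronal markers summed to 5053 to 5612 TPM in heterozygote and 4728 to 4836 TPM in KO libraries, with *Tubb3* at 2774 and 2430.1 TPM and *Nefl* at 1397 and 1088 TPM, and 3 of 10 fold changes were negative (median 0.14). Of the pan-neuronal markers, *Syt1* (0.36), *Elavl3* (0.31), and *Rbfox3* (0.34) were higher and *Nefl* (−0.36) was lower at an unadjusted p under 0.05 (limma). MN markers summed to 531 to 552 and 491 to 524 TPM, with *Prph* at 309 and 261 TPM, and 3 of 10 were negative (median 0.0852). None of these 20 markers was called, and their part in the channel values was not tested.

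**Figure D5:**
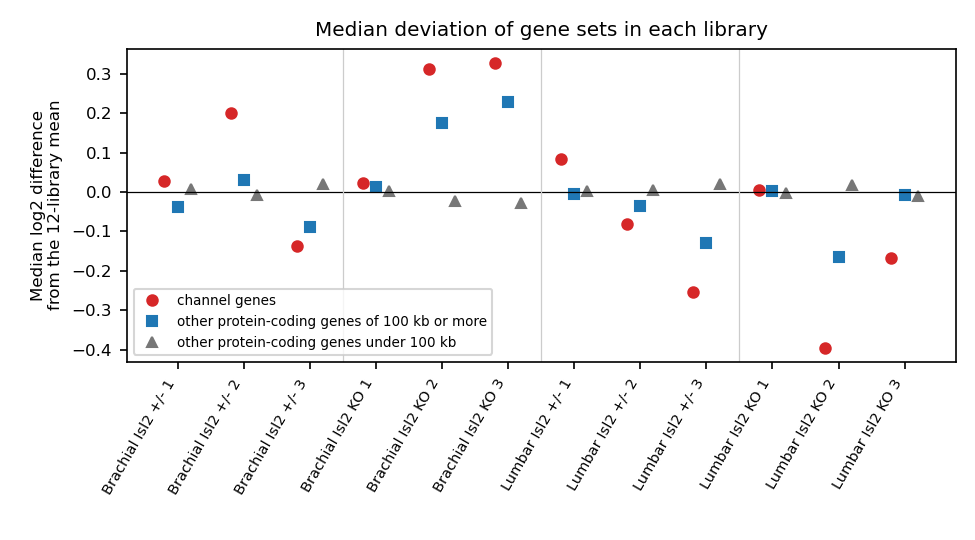
Median log2 difference from the 12-library mean in each library for the 33 channel genes (circles), the other protein-coding genes of 100 kb or more (squares), and those under 100 kb (triangles). The channel genes and the other long genes are highest in brachial KO libraries 2 and 3 and lowest in lumbar KO library 2, where the channel median is −0.39, while the shorter genes stay near 0.

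At the lumbar level 0 of 33 channel genes were called (all genes, 1.76%), and 0 had an unadjusted p under 0.05 (limma; all genes, 4.86%). The log2 fold change was negative for 27 of 33 genes (all genes, 51.7%), with a median of −0.098. Of 10 pan-neuronal and 10 MN markers, 9 each were negative too, with medians of −0.13 and −0.21, and *Prph* alone of the 20 was called, lower. The pan-neuronal sums were 4769 to 5464 TPM in heterozygote and 4229.7 to 4789.9 TPM in KO libraries, and the MN sums 283 to 371 and 222 to 309 TPM, and their part in the channel values was not tested. Both the count and the median moved with single libraries. Leaving out lumbar heterozygote library 1 left 18 of 33 negative with a median of −0.00131, and leaving out lumbar KO library 2 left 19 with −0.0163. Without lumbar heterozygote library 3 or lumbar KO library 1, 31 of 33 were negative, with medians of −0.157 and −0.176. The smallest p belonged to *Hcn2*, with 3.46, 2.59, and 2.6 TPM in heterozygote and 2.78, 2.16, and 1.57 TPM in KO libraries, a log2 fold change of −0.42 (−0.98 to 0.14). Of the 33 genes, 2 had all KO libraries below the heterozygotes (all genes, 5.45%), among them *Scn2b* with a fold change of −0.21 (−0.51 to 0.09). *Scn3a*, *Cacna1b*, and *Cacnb3* had 0.06 (−0.15 to 0.27), −0.02 (−0.38 to 0.33), and −0.10 (−0.35 to 0.16).

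The difference between the lumbar and the brachial KO effect was tested as an interaction in all 12 libraries. At an adjusted p under 0.05, 0 of the 33 channel genes and 0.0% of all 16736 genes were called (limma). At an unadjusted p under 0.05, 2 of 33 passed, both lower, against 2.19% of all genes lower. That number rose to 8 without brachial KO library 1 (all genes in either direction, 12.6%) and to 6 without lumbar KO library 1 (7.22%), and was 1 to 3 without any other library. The 2 genes were *Cacna2d3* and *Cacna2d1*, at −0.25 (−0.44 to −0.05) and −0.33 (−0.62 to −0.03). The difference was negative for 30 of 33 genes (all genes, 51.6%), with a median of −0.31, and unscaled TPM moved the median of all genes to −0.166. All 18 channel genes of 100 kb or more were negative, with a median of −0.33. The other long protein-coding genes were negative in 1619 of 2057 cases, with a median of −0.18, against 0.0067 for the shorter ones. Of the pan-neuronal and the MN markers, 8 and 10 of 10 were negative, with medians of −0.31 and −0.24, and 0 were called. The part of gene length and of cell makeup in the difference was not tested. The widest of the other differences, those of *Cacng3* and *Cacng2*, were −0.70 (−2.15 to 0.75) and −0.70 (−1.46 to 0.07). Of the 34 partner genes tested, 2 were called higher in brachial KO, *Ank3* (0.90) and *Nfasc* (0.57), which anchor sodium channels at the axon initial segment, against 2.31% of all genes called higher. In brachial KO libraries 1, 2, and 3, *Ank3* had 24.9, 58.7, and 70.4 TPM and *Nfasc* 15.1, 18.2, and 27.4 TPM, against 25.8, 32.5, and 18.7 and 14.2, 15.6, and 10.3 TPM in the heterozygotes. KO library 1 lay within the heterozygote range for both, and both genes are long (494 and 177 kb). In lumbar KO, 0 partners were called. Of the marker lists, 0 markers were called in brachial KO, and *Prph* (lower) and *Hba-x* (higher) were called in lumbar KO.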

How the data were processed

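Total RNA of ventral spinal cord was sequenced in 12 libraries, 3 per level and genotype. Per the study's methods and the submitters' notes, the authors used Trimmomatic 0.38 for trimming, HISAT2 2.1.0 and Bowtie2 2.3.4.1 for mapping to mm10, and StringTie 2.1.3b. TPM as deposited was scaled by the authors to the same total in each library, the deposited FPKM to gene length and mapped fragments, and the deposited coverage is the mean per-base coverage signal. Counts were not used here, and aligned bases come from coverage over FPKM. RefSeq GRCm38.p6 gave symbols for 45679 of 45777 identifiers (96.1% with the same coordinates). Size factors (median of ratios) rescaled the TPM, and limma 3.58.1 in R 4.3.3 was fitted to log2(TPM + 0.1) of every gene averaging 0.5 TPM or more, after tests on simulated data. Fold changes are on that log2 scale. Plots were drawn with matplotlib 3.10.9. Other pseudocounts, filters, scalings and units, a replicate block, and leaving out each library were tried. The channel genes, the partner list, and the 10 marker lists were chosen with earlier results of these data known, and p-values measure the spread between these libraries. Library values are given for called genes, the leading gene of each class, and genes within 5 Mb of *Isl2*, and means for the others at 1 TPM or more. *Cacna2d1* and *Cacnb1* were added to these after their values were seen. Some genes are not reported here by name, and counts and medians over the channel genes include them.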

Additional observations from a re-analysis of the deposited data

Results flagged for a closer look

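The KO effect of *Cacna2d1* differed between levels by −0.33 on the log2 scale (lumbar minus brachial, unadjusted p = 0.0333, adjusted p = 0.805, limma), with 0.31 in brachial and −0.01 in lumbar cord. That of *Cacna2d3* differed by −0.25 (unadjusted p = 0.0164, adjusted p = 0.805, limma), with 0.23 and −0.01. Both passed only the unadjusted threshold of the interaction test, as did 743 of all 16736 genes. That is 2 of 33 channel genes (6.06%) against 4.44% of all genes.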

How the results depend on the processing

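The 9 level calls stayed at 9 with either other pseudocount, a filter at 1 TPM, FPKM, TPM as deposited, or the protein-coding total. In those fits 17.1% to 20.5% of all genes were called. The count was 8 with quantile normalization (all genes, 19.4%), 7 with coverage (18.9%), 6 without the trend in limma (17.3%), and 6 of 43 without a filter (8.97%). Heterozygote libraries alone gave 1 (all genes, 2.97%) and KO libraries alone 0 (1.77%), with fewer libraries tested. Leaving out 1 library gave 3 to 9. With a replicate block the level comparison gave 6 calls (all genes, 14.1%) and the brachial comparison 1 (all genes, 3.14%), against 9 and 0 without it. The block changed no count of called channel genes in lumbar KO or the interaction. Same-numbered libraries correlated between −0.22 and 0.34, not above 0.1 in every pair, so the numbers were not taken to pair libraries, and embryos shared under other numbers were not tested. In brachial KO, TPM as deposited gave 4 calls (all genes, 7.43%), the protein-coding total 1 (4.06%), and leaving out 1 library 0 to 7 (1.63% to 8.40%). In lumbar KO leaving out 1 library gave 0 to 1 (all genes, 1.76% to 2.74%). The 1 call was *Hcn2*, without KO library 1 (all genes, 2.59%), and the interaction gave 0 throughout. The lumbar KO value of *Hcn4*, −0.08, reversed to 0.11 without heterozygote library 1 and to 0.04 without KO library 3, with −0.25 to 0.11 over all libraries left out. Of 919 values under alternatives, counting single genes, calls by direction, and median fold changes, 827 were unchanged by a set rule. For a gene this meant the same direction and side of the threshold. A median had to move by less than 0.174, and a count had to stay within a set ratio. The cause of these changes was not tested. With 3 libraries per group and no counts, the precision of low genes such as *Cacng3* is limited.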
